A study of Gallus gallus with 6 samples.

Results

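The Eph, semaphorin, Slit and netrin guidance genes were taken by symbol from the chick count table. They were 54 of its 24356 rows, made up of 27 ligands and 27 receptors. The ligands were 4 ephrins, 17 semaphorins, 3 Slits and 3 netrins. The receptors were 11 Eph receptors, 7 plexins, 2 neuropilins, 2 Robo receptors and 5 netrin receptors (UNC5A to UNC5D and neogenin, NEO1). The symbol DCC matched no row, and this netrin receptor was not analysed here. All 54 genes had counts, 50 of them had at least 10 counts in at least 3 samples, and the same 50 received an adjusted p. EPHA8, SEMA4C, SEMA6C and NTN4 had too few counts to be tested.

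Each library came from chick embryos that received plasmids by electroporation at the head fold stage and were then kept at 38 °C for 16 to 24 h. The Sox8OE group (n = 3) carried pCES-Sox8-mCherry, which expresses Sox8 with a red fluorescent protein, and pTK-Lmx1aE1-EGFP, a green reporter driven by the otic enhancer Lmx1aE1. The Control group (n = 3) carried pCES-mCherry and pCES-EGFP, with no Sox8. In both groups the embryo's own otic placode was cut away, cells positive for both colours were sorted from the head by FACS, and RNA was sequenced in bulk. The Sox8OE cells were thus also selected for otic enhancer activity and the Control cells were not, so Sox8 and this selection cannot be told apart. The labels give no chick strain. In a bulk sample, fewer cells of a type and less RNA per cell cannot be told apart either.

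Guidance cues are secreted or membrane-held proteins that attract or repel migrating cells and growing axons. Ephrins sit on the cell surface and bind Eph receptor tyrosine kinases on neighbouring cells, with signals running into both cells. Semaphorins act mainly through plexins, and most secreted class 3 semaphorins need a neuropilin as co-receptor. Slits bind Robo receptors, and netrins bind DCC, neogenin and UNC5 receptors. In the vertebrate head these systems are best known for keeping neural crest streams apart, for setting tissue boundaries and for steering the axons of cranial ganglia and of the brain.

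Total gene counts lay between 26326573 and 46586658 per library. In the order of replicates 1, 2 and 3 they were 35377763, 46586658 and 38343404 in Control. In Sox8OE they were 43288221, 28650234 and 26326573, so that replicates 2 and 3 were the shallowest libraries. The part of sequencing depth in the guidance results was not tested. Sox8 itself rose. Its normalised counts (counts divided by a size factor for each library) are given, like all those that follow, in the order of replicates 1, 2 and 3, and were 854, 1685 and 968 in Control against 8554, 9889 and 9138 in Sox8OE (log2 fold change 2.97 ± 0.36 SE, DESeq2 adjusted p = 4.0e-13). Sox8OE replicate 1 stood apart from the other Sox8OE libraries. Over the guidance genes it correlated with the Control libraries at 0.904 to 0.932 and with Sox8OE replicates 2 and 3 at 0.872 and 0.927, while those latter libraries correlated with each other at 0.958. Ribosomal protein genes took 5.03 to 6.86% of Control counts, and in Sox8OE they took 5.28% of replicate 1, 10.7% of replicate 2 and 8.25% of replicate 3. Summed normalised counts of surface ectoderm markers ran from 27213 to 31628 in Control and from 41253 to 51166 in Sox8OE. Of the 10 tested, 3 were called higher and TP63 alone had a negative value (-0.85, adjusted p = 0.20). EPCAM was the largest part of each Control sum, with a mean of 16318 in Control and 16664 in Sox8OE. Otic markers summed to 7831 to 12431 in Control and to 34086 to 44022 in Sox8OE, with 4 of 9 called higher. Those 4 include SOX8, which the Sox8OE plasmid expresses, and LMX1A, whose enhancer drove the reporter used for sorting. The design itself thus bears on both of these genes. Neural tube and forebrain markers summed to 71953 to 79970 in Control and 35767 to 50176 in Sox8OE. HES5 made up most of that sum (mean 61536 and 33048) and was not called (adjusted p = 0.097), and of the 11 genes 5 were positive and 6 negative, with NKX2-1, LHX9 and DBX1 called lower. Neuron markers summed to 13828 to 15937 and 10619 to 12903, mostly TUBB3 and DCX, neither of them called, and the only neuron marker called of 8 tested, NEFL, rose (log2 fold change 1.55, adjusted p = 0.0038). The sums overlapped for neural crest markers (11993 to 16919 in Control, 14522 to 27482 in Sox8OE, 0 of 8 called), head mesenchyme markers (4834 to 6154 and 3314 to 4851, 3 of 8 called lower) and vessel and blood markers (734 to 1518 and 680 to 2811, 1 of 10 called lower). PECAM1 was the largest part of the vessel and blood sum in every library and was not called (adjusted p = 0.21). The sensory neuron gene POU4F1 and the mesenchyme gene TCF21 were at 0 in every library. The part of these lists in the guidance results was not tested.

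As a whole, the guidance genes took more of the reads in Sox8OE replicates 2 and 3 than elsewhere, 0.211 and 0.222% of all counts against 0.106 to 0.125% in the other libraries. Their summed normalised count was 41636, 45616 and 40593 in Control against 43644, 66446 and 62962 in Sox8OE. Sox8OE replicate 1 lay within the Control range and the others above it. A gene was called changed when its DESeq2 adjusted p was under 0.05 and its log2 fold change, Sox8OE against Control, was beyond 1.5 in either direction. 4 guidance genes rose by this rule, and all of them were ligands: the semaphorins SEMA6B, SEMA7A and SEMA3G and the Slit SLIT1. No guidance gene fell by it. Over all genes tested 3.32% were called higher and 0.961% lower, 4.28% in all. The Eph receptor EPHA3 also had an adjusted p under 0.05, with a smaller fold change, making 5 guidance genes, all higher, against 3.94% of all genes higher and 1.3% lower (5.24% in all). The median log2 fold change was 0.40 over the 50 guidance genes tested and 0.079 over all genes. On the positive side were 36 guidance genes and on the negative 14, where 8500 of the 16032 genes tested were positive. Ligands had a median of 0.66 (17 positive, 7 negative) and receptors one of 0.29 (19 positive, 7 negative). That order was reversed without Sox8OE replicate 1, where the medians were 0.53 for ligands and 0.59 for receptors.

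The calls were sensitive to the test and to the samples. edgeR's quasi-likelihood test and limma voom called none of the guidance genes at an adjusted p under 0.05, where they called 0.276 and 0.222% of all genes. They gave 16 and 18 guidance genes an unadjusted p under 0.05, and DESeq2 gave 20. Over all genes those unadjusted shares were 16.4, 19 and 21.8%. The replicate block pairs samples by replicate number, a pairing taken from these same counts and not given by the labels. With it, 9 guidance genes were called (6 higher, 3 lower) against 8.15% of all genes (4.83% higher, 3.32% lower). Under the block 18 had an adjusted p under 0.05 (13 higher, 5 lower) against 18.6%. Without Sox8OE replicate 1 the count was again 9 (6 higher, 3 lower), against 18.2% of all genes (9.31% higher, 8.93% lower). In that setting 24 guidance genes (19 higher, 5 lower) had an adjusted p under 0.05, against 39.4% of all genes (2977 higher, 3612 lower). The count of calls was 2 without Control replicate 1 (1.56% of all genes), Control replicate 3 (1.73%) or Sox8OE replicate 3 (1.95%). It was 3 without Sox8OE replicate 2 (1.75%) and 7 without Control replicate 2 (4.11%). limma voom with sample quality weights called 15 (20% of all genes) and gave 31 an adjusted p under 0.05 (50.2%). Those weights ran from 0.131 for Sox8OE replicate 1 to 3.21 for Sox8OE replicate 3. With total-count scaling the counts were 7 (6.76%) and 9 (8.64%). Among the guidance genes that leaving out Sox8OE replicate 1 put under an adjusted p of 0.05 were SEMA3E, SEMA4G, ROBO1, EPHB6, NRP1, NRP2, PLXNA4 and PLXND1. In that setting 39.4% of all genes were under it, and leaving out any other library put none of those named there. EFNB1, EPHA1 and SEMA3F were also put there, and for each of them leaving out another library did the same.

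**Figure D1:**
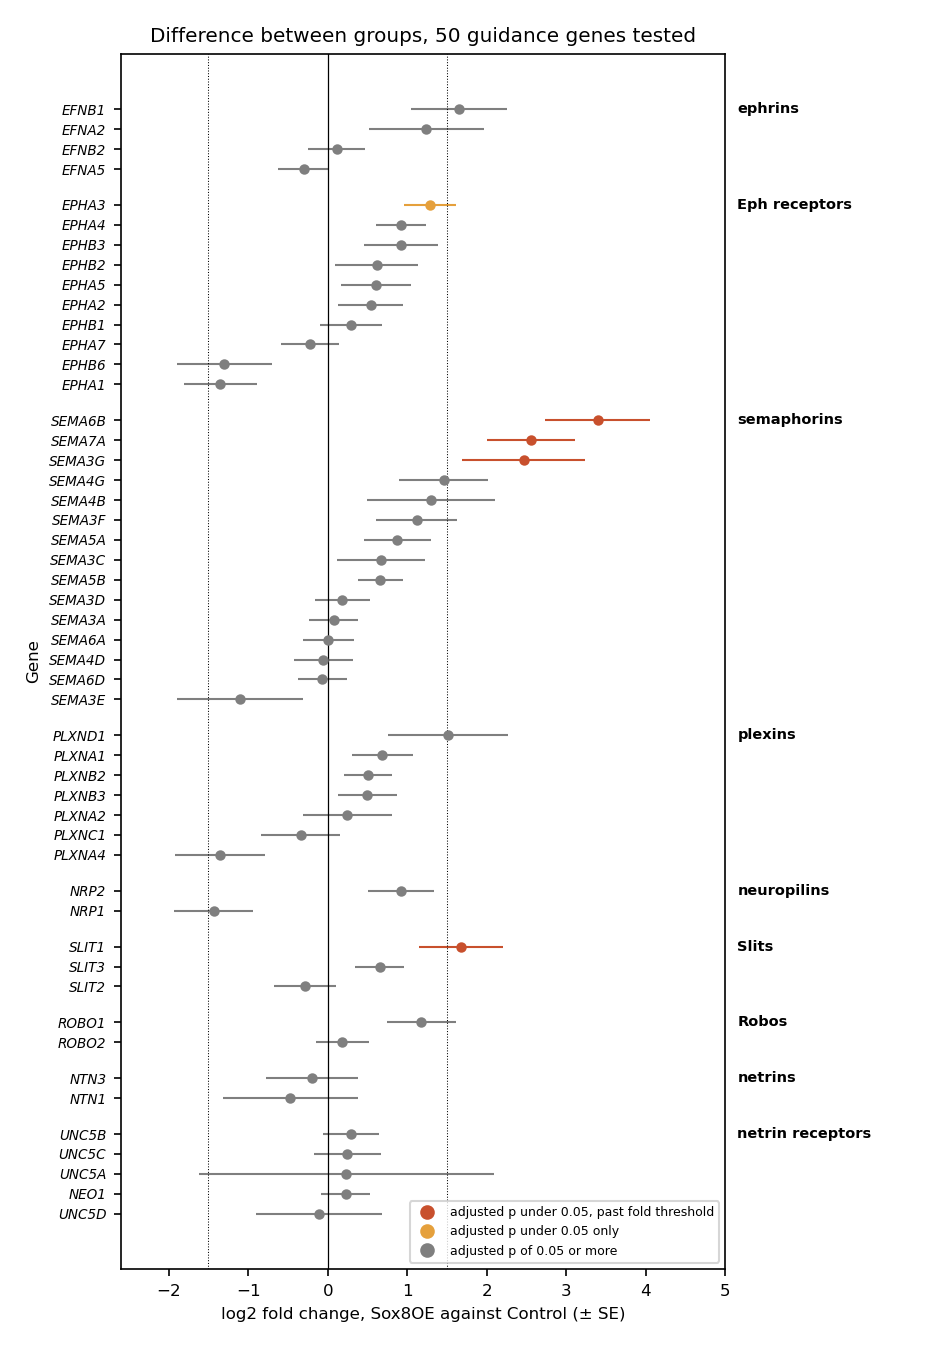
Log2 fold change of each of the 50 guidance genes tested, Sox8OE against Control, grouped by family; points are DESeq2 estimates, bars ± 1 SE, dotted lines the fold threshold of 1.5. The 4 genes past both thresholds are semaphorins and a Slit, led by SEMA6B at 3.39, while the lowest points, NRP1, EPHA1 and PLXNA4, lie between -1.43 and -1.35.

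Among the semaphorins, 3 of the 15 tested rose, and they belong to different classes. SEMA6B (ENSGALG00000001171), a transmembrane semaphorin that binds plexin-A4 in mouse, had normalised counts of 35.4, 69.8 and 57.2 in Control against 133, 1021 and 559 in Sox8OE. Every Sox8OE library was above every Control library, and Sox8OE replicate 1 was well below the other Sox8OE libraries. The log2 fold change was 3.39 ± 0.66 SE (10.5-fold, DESeq2 adjusted p = 4.9e-05), and it was 3.85 without Sox8OE replicate 1 and 3.06 with the replicate block.

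SEMA7A (ENSGALG00000001412), a lipid-anchored semaphorin whose receptors are integrins and plexin-C1, stood at 58.6, 133 and 45.2 in Control and 254, 560.5 and 577 in Sox8OE. The groups did not overlap, and again Sox8OE replicate 1 was the lowest of its group. The difference was 2.55 ± 0.55 SE on the log2 scale (5.87-fold, adjusted p = 3.9e-04). SEMA6B and SEMA7A kept their call when each of the 6 libraries was left out in turn, with adjusted p values of at most 0.0067 and 0.022. Their edgeR adjusted p values were 0.0996 and 0.104.

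SEMA3G (ENSGALG00000004476), a secreted class 3 semaphorin that signals through neuropilin-2, was the most variable of the called genes in Control. It stood at 19.9, 269 and 60.9 in Control and at 305, 858 and 775 in Sox8OE. The groups did not overlap, but Control replicate 2 came close to Sox8OE replicate 1. The log2 fold change was 2.47 ± 0.77 SE (5.53-fold, adjusted p = 0.034) and 3.07 with the replicate block (adjusted p = 1.3e-07). It kept its call without Control replicate 2 (log2 fold change 3.98) and lost it without any other library, with 2.80 and adjusted p = 0.056 without Sox8OE replicate 1 and adjusted p values up to 0.18 otherwise.

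**Figure D2:**
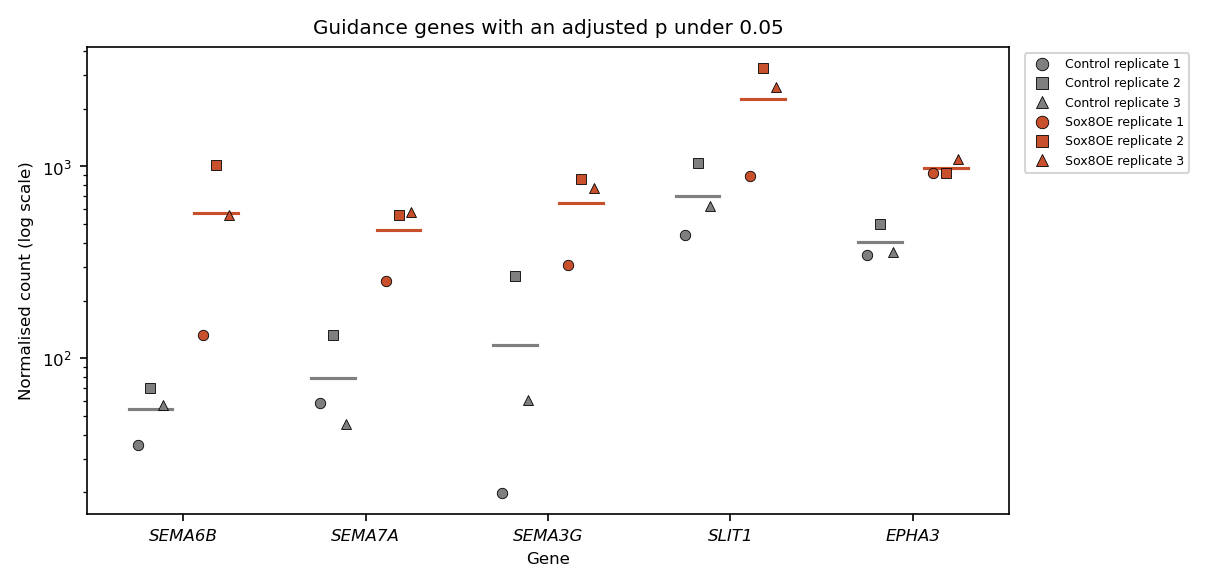
Normalised count (log axis) in each library for the 5 guidance genes with an adjusted p under 0.05; grey Control, red Sox8OE, symbols give the replicate number and horizontal lines the group means. SEMA6B, SEMA7A, SEMA3G and EPHA3 do not overlap between groups, whereas for SLIT1 Sox8OE replicate 1 (894) lies below Control replicate 2 (1041).

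The other secreted semaphorins had fold changes of both signs, none of them past the test over all samples. SEMA3F, a repellent ligand of neuropilin-2, stood at 1484, 3489 and 1562 in Control and 2284, 6624 and 5269 in Sox8OE. Control replicate 2 was above Sox8OE replicate 1, and the log2 fold change was 1.12 ± 0.50 SE (adjusted p = 0.17, and 0.0099 with the replicate block). SEMA3E, which binds plexin-D1 without a neuropilin in mouse, had the lowest value of the family. It stood at 246, 207 and 269 in Control and 218, 9.89 and 109 in Sox8OE, so that Sox8OE replicate 1 lay within the Control range and replicate 2 was lowest. SEMA3E differed by -1.10 ± 0.79 SE (adjusted p = 0.39), by -1.78 with the replicate block (adjusted p = 0.044) and by -2.04 without Sox8OE replicate 1 (adjusted p = 0.013). SEMA3A, the founding repellent of the class and a ligand of neuropilin-1, gave 0.07 ± 0.31 SE, with 1536 to 1707 in Control and 1446 to 2101 in Sox8OE. SEMA3C and SEMA3D, both secreted and known in cardiovascular and crest development, gave 0.67 ± 0.55 and 0.19 ± 0.35.

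None of the remaining membrane-bound semaphorins passed the test over all samples. SEMA5B, which carries thrombospondin repeats outside the cell, stood at 1735, 1890 and 1977 in Control and 2581, 3119 and 3177 in Sox8OE. These groups did not overlap, and the log2 fold change of 0.66 ± 0.28 SE did not pass the test (adjusted p = 0.14). SEMA5A, of the same class, was also apart, at 107, 180.5 and 224 against 355, 302 and 284 (0.88 ± 0.42 SE, adjusted p = 0.21).

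SEMA4G and SEMA4B, transmembrane class 4 members, came under an adjusted p of 0.05 when different libraries were left out. SEMA4G stood at 92.8, 141 and 130 in Control and 128, 535 and 338 in Sox8OE, which gave 1.46 ± 0.56 SE (adjusted p = 0.10), 1.27 with the replicate block (adjusted p = 0.046) and 1.83 without Sox8OE replicate 1 (adjusted p = 5.4e-05). SEMA4B stood at 25.4, 308 and 52.6 in Control and 206, 507 and 239 in Sox8OE, with Control replicate 2 above Sox8OE replicates 1 and 3. Its log2 fold change was 1.30 ± 0.80 SE (adjusted p = 0.32), 1.95 with the replicate block (adjusted p = 0.0080) and 3.01 without Control replicate 2 (adjusted p = 7.3e-04). SEMA4D, SEMA6A and SEMA6D, ligands of plexin-B and plexin-A receptors, lay between -0.07 and 0.01. SEMA4C and SEMA6C, with at most 19 and 7 counts in any library, were not tested.

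Of the Slit ligands, which repel cells carrying Robo receptors, SLIT1 rose. SLIT1 (ENSGALG00000042871) stood at 440, 1041 and 619 in Control and 894, 3252 and 2586 in Sox8OE. Sox8OE replicate 1 lay within the Control range, and the other Sox8OE libraries were above every Control library. The log2 fold change was 1.68 ± 0.53 SE (3.2-fold, adjusted p = 0.035), 1.58 with the replicate block (adjusted p = 1.8e-04) and 2.05 without Sox8OE replicate 1 (adjusted p = 3.3e-08). The SLIT1 call was kept without Control replicate 2 (2.07) and was lost without Control replicate 1 (1.42), Control replicate 3 (1.60), Sox8OE replicate 2 (1.30) or Sox8OE replicate 3 (1.55), at adjusted p values of 0.18 to 0.26.

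SLIT3 was level among the Control libraries, at 2228, 2247 and 2307, and was 2753, 3776 and 4133 in Sox8OE. The groups were apart, at 0.65 ± 0.30 SE (adjusted p = 0.19). SLIT2 differed little, at 333, 505 and 490 against 270.5, 466 and 350.5 (-0.29 ± 0.39 SE, adjusted p = 0.66).

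On the receptor side ROBO1, a receptor for the Slits, stood at 1130, 898 and 1188 in Control and 1183, 3034 and 3053 in Sox8OE. Sox8OE replicate 1 was within the Control range and the other Sox8OE libraries were far above it. The ROBO1 log2 fold change was 1.18 ± 0.43 SE (adjusted p = 0.084), with an adjusted p of 0.030 under the replicate block and 1.49 without Sox8OE replicate 1 (adjusted p = 5.0e-09). Without any other library the ROBO1 adjusted p was 0.24 to 0.41. ROBO2 overlapped between groups, at 3623, 2749 and 3265 against 2714, 3743 and 4493 (0.18 ± 0.33 SE, adjusted p = 0.75).

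None of the 4 ephrins passed the test over all samples. EFNB1, a transmembrane ligand that binds mainly EphB receptors, stood at 168, 446 and 156 in Control and 316, 1323 and 784 in Sox8OE. Control replicate 2 was above Sox8OE replicate 1, and the other Sox8OE libraries were highest. The EFNB1 log2 fold change was 1.65 ± 0.60 SE (adjusted p = 0.080), and it passed both thresholds with the replicate block (1.60, adjusted p = 0.0016) and without Sox8OE replicate 1 (2.03, adjusted p = 6.4e-05). EFNB1 also passed both without Control replicate 2 (2.30, adjusted p = 0.011). Without any other library its adjusted p was 0.22 to 0.52. EFNA2, a lipid-anchored ligand of EphA receptors, likewise had Control replicate 2 above Sox8OE replicate 1, at lower counts, 15.5, 62.8 and 41.5 against 42.2, 134 and 109 (1.24 ± 0.72 SE, adjusted p = 0.29). EFNA5, also lipid-anchored, was close to 500 in every Sox8OE library (494, 519 and 512) and 728, 512 and 643 in Control (-0.30 ± 0.32 SE, adjusted p = 0.57). EFNB2 gave 322, 267 and 334 against 413, 311 and 272 (0.11 ± 0.36 SE, adjusted p = 0.87).

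The median over the 10 Eph receptors tested was 0.58 on the log2 scale, with values from -1.35 to 1.29. EPHA3 (ENSGALG00000015403), a receptor for A-class ephrins, was the only one with an adjusted p under 0.05. It stood at 345, 501 and 360 in Control and 921, 928 and 1093 in Sox8OE. All Sox8OE libraries were alike and well above Control, including replicate 1. EPHA3 rose by 1.29 ± 0.33 SE (2.44-fold, adjusted p = 0.0054), which is short of the fold threshold. The adjusted p stayed under 0.05 without Control replicate 2 (0.013) and without Sox8OE replicate 1 (7.2e-05). It was 0.20 without Control replicate 1 or 3, 0.063 without Sox8OE replicate 2 and 0.17 without Sox8OE replicate 3.

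EPHA4, which binds ephrins of both classes, was also higher in every Sox8OE library, at 968, 1054 and 950 in Control and 1470, 1825 and 2334 in Sox8OE. The EPHA4 difference was 0.92 ± 0.32 SE (adjusted p = 0.064, and 0.035 with the replicate block). EPHB3 stood at 1082, 2048 and 1307 against 1380, 3930 and 3073, with Control replicate 2 above Sox8OE replicate 1 (0.92 ± 0.46 SE, adjusted p = 0.23, and 0.049 with the replicate block). EPHA2, EPHA5, EPHB1 and EPHB2 lay between 0.29 and 0.62, and for each of them Sox8OE replicates 2 and 3 were above every Control library while replicate 1 was not. EPHA7 gave -0.23 ± 0.36 SE, and EPHA8 had at most 3 counts in any library.

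The lowest Eph receptors were EPHA1 and EPHB6. EPHA1 stood at 396, 390 and 477 in Control and 166, 242 and 88.2 in Sox8OE. All Sox8OE libraries were below all Control libraries, and replicate 3 was lowest. The EPHA1 log2 fold change was -1.35 ± 0.46 SE (adjusted p = 0.056), -1.45 with the replicate block (adjusted p = 0.017) and -1.73 without Sox8OE replicate 2, where it was called. EPHB6, whose kinase domain is inactive, stood at 3038, 1868 and 2561 in Control and 2016, 303 and 713 in Sox8OE. Sox8OE replicate 1 was within the Control range and replicates 2 and 3 were far below it. EPHB6 gave -1.30 ± 0.60 SE over all samples (adjusted p = 0.18), -1.69 with the replicate block (adjusted p = 7.1e-04) and -2.31 without Sox8OE replicate 1 (adjusted p = 1.7e-09).

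The neuropilins, co-receptors of the secreted semaphorins, had fold changes of opposite sign, and neither passed the test over all samples. NRP1 stood at 384, 305 and 556 in Control and 182, 204 and 74.2 in Sox8OE, and NRP2 at 324, 724 and 498 in Control and 879, 1225 and 826 in Sox8OE. Neither gene overlapped between the groups, with NRP1 below and NRP2 above Control in every Sox8OE library. NRP1 differed by -1.43 ± 0.50 SE (adjusted p = 0.064, and 0.025 with the replicate block), and NRP2 by 0.92 ± 0.41 SE (adjusted p = 0.17, and 0.035 with the replicate block). Without Sox8OE replicate 1, NRP1 passed both thresholds at -1.59 (adjusted p = 0.0036) and NRP2 gave 0.98 (adjusted p = 0.023). Without any other library the NRP1 adjusted p was 0.066 to 0.39.

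The plexin median was 0.50, and none of the 7 passed the test over all samples. PLXNA4, a receptor that class 3 semaphorins reach through neuropilin-1 and class 6 semaphorins bind directly, was the lowest. It stood at 809, 580 and 850 in Control and 85.3, 440 and 352 in Sox8OE. The groups were apart, and here Sox8OE replicate 1 was the farthest from Control. PLXNA4 gave -1.35 ± 0.56 SE (adjusted p = 0.14), -1.60 with the replicate block, where it was called (adjusted p = 0.012), and -0.93 without Sox8OE replicate 1 (adjusted p = 0.0095).

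PLXND1, known from vessel patterning as the SEMA3E receptor in mouse, had low counts, 16.6, 67.5 and 53.5 in Control and 56.8, 84.6 and 253 in Sox8OE. Its value of 1.51 ± 0.75 SE (adjusted p = 0.22) was 0.61 without Sox8OE replicate 3, and 1.86 with an adjusted p of 0.030 without Sox8OE replicate 1. PLXNA1 stood at 600, 812 and 681 against 740, 1139 and 1493 (0.69 ± 0.38 SE, adjusted p = 0.26). PLXNB2 was apart between groups, at 1919, 1409 and 1730 against 2131, 2713 and 2329 (0.50 ± 0.30 SE, adjusted p = 0.30). PLXNB3, PLXNA2 and PLXNC1 gave 0.50, 0.25 and -0.34, each with an adjusted p of 0.41 or more.

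**Figure D3:**
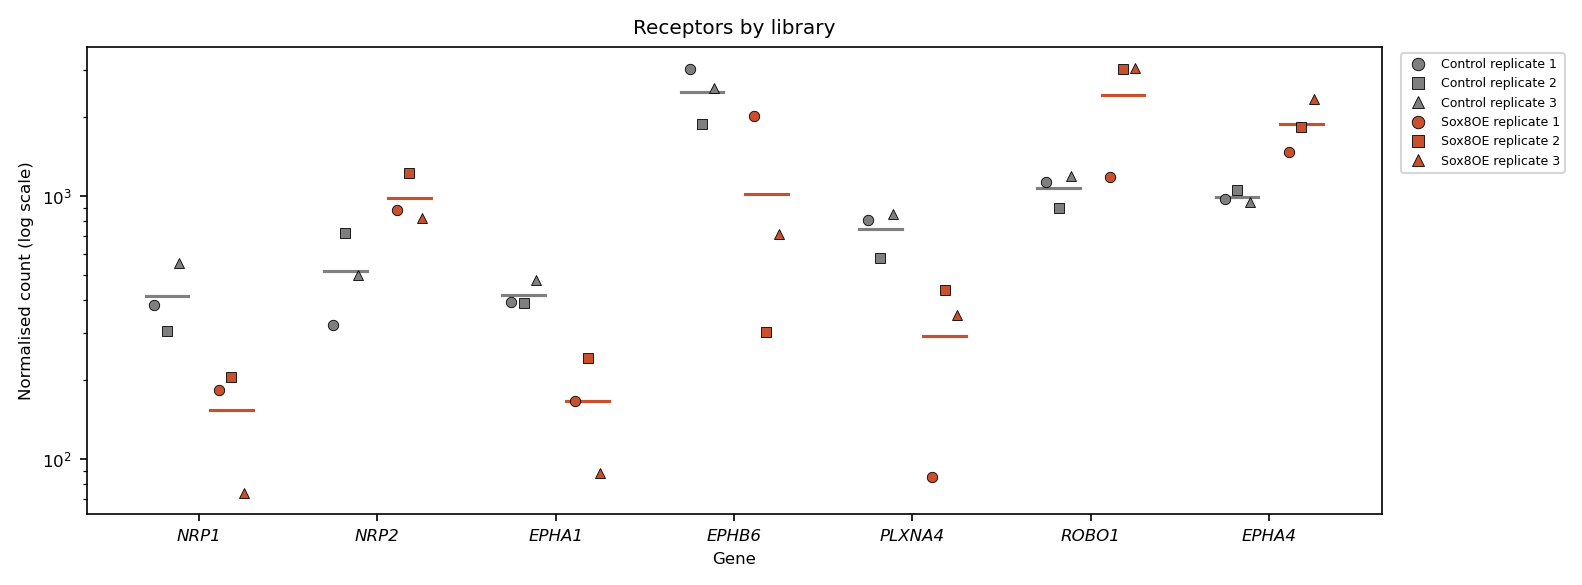
Normalised count (log axis) in each library for 7 receptors; grey Control, red Sox8OE, symbols give the replicate number and horizontal lines the group means. NRP1, EPHA1 and PLXNA4 are below and NRP2 and EPHA4 above Control in every Sox8OE library, while for EPHB6 and ROBO1 Sox8OE replicate 1 (2016 and 1183) sits within the Control range.

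No netrin or netrin receptor passed the test, and their adjusted p values were 0.62 or more. NTN1, the long-range attractant of commissural axons, had few counts, 18.8, 43.9 and 26.8 in Control and 9.47, 35.2 and 20.4 in Sox8OE (-0.47 ± 0.85 SE, adjusted p = 0.76). NTN3 gave 137, 116 and 80.3 against 43.9, 102 and 145 (-0.20 ± 0.58 SE, adjusted p = 0.86). NTN4, with raw counts of 12, 0 and 1 in Control and 18, 2 and 0 in Sox8OE, was not tested. For all 3 the groups overlapped.

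NEO1, a receptor for netrins and for RGM proteins, stood at 4763, 4619 and 3749 in Control and 4085, 5329 and 5922 in Sox8OE (0.22 ± 0.31 SE, adjusted p = 0.67). UNC5B, which mediates repulsion by netrins, gave 2164, 4207 and 2893 against 3637, 4007 and 3714 (0.29 ± 0.35 SE, adjusted p = 0.62). UNC5C gave 514, 410 and 269 against 334, 477 and 603 (0.25 ± 0.42 SE, adjusted p = 0.74). The groups overlapped for each of these receptors. UNC5D varied within both groups, at 92.8, 269 and 75.7 against 189, 22.0 and 195 (-0.11 ± 0.79 SE, adjusted p = 0.95). UNC5A had raw counts of 0, 20 and 14 in Control and 0, 24 and 7 in Sox8OE, and its estimate of 0.23 ± 1.85 SE was too wide to give a direction.

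Read across libraries, the genes fell into a few patterns. In 13 of the 50 genes tested (26%) the Control and Sox8OE libraries did not overlap, against 19.2% of all genes tested. Of these, 10 were higher in Sox8OE (EPHA3, EPHA4, NRP2, PLXNB2, SEMA3G, SEMA5A, SEMA5B, SEMA6B, SEMA7A and SLIT3) and 3 lower (EPHA1, NRP1 and PLXNA4), against 10.1% and 9.09% of all genes. In a further 17 genes (34%) Sox8OE replicates 2 and 3 were above every Control library and replicate 1 was not, against 21.8% of all genes. This group held SLIT1, ROBO1 and ROBO2, EFNA2 and EFNB1, and 5 Eph receptors. The opposite, with replicates 2 and 3 below Control and replicate 1 not, held EPHB6 and SEMA3E alone (4%, against 21.1%). In 17 genes Sox8OE replicates 2 and 3 were the highest of the 6 libraries and Control replicate 2 the highest Control, against 13.7% of all genes. Control replicate 2 also had the highest summed level of surface ectoderm, otic, neural crest, head mesenchyme and neuron markers among the Control libraries. Sox8OE replicate 2 had the highest of each in its group except neuron markers, which were highest in Sox8OE replicate 1 (12903). Surface ectoderm markers were lower in Sox8OE replicate 3 (41253) than in replicate 1 (47187). Neural tube and forebrain markers were highest in Control replicate 1 (79970) and Sox8OE replicate 1 (50176). Vessel and blood markers were highest in Control replicate 3 (1518) and Sox8OE replicate 2 (2811). In that Sox8OE library PECAM1 alone gave 2346 of the sum, and the vessel gene CDH5 was at 0. The marker lists share genes: SOX10 is in the otic and neural crest lists, and TFAP2A in the surface ectoderm and neural crest lists. The part of these markers in the pattern was not tested.

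**Figure D4:**
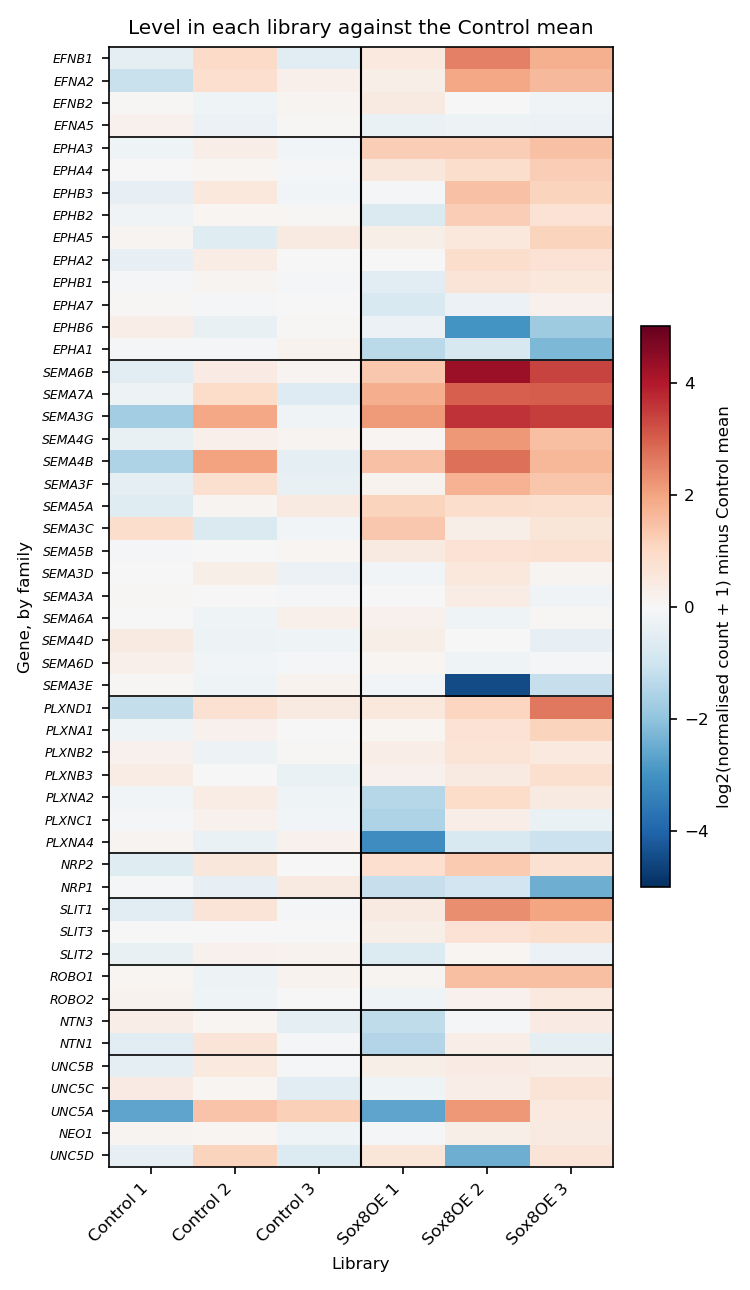
Each of the 50 guidance genes tested (rows, by family) in each library (columns), as log2 of normalised count plus 1 minus the mean over the Control libraries; red is higher, blue lower. The strongest reds are SEMA6B, SEMA7A and SEMA3G in Sox8OE replicates 2 and 3, the strongest blue is SEMA3E in Sox8OE replicate 2 (9.89 normalised counts), and Sox8OE replicate 1 is paler in most rows.

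The genes that work with these cues inside the cell, as co-receptors or as other ligands were read from a list of 60. Of these, 53 were found and 50 tested. MET and TRIM9 rose and RGMA fell past both thresholds, which is 3 of the 50, against 4.28% of all genes. An adjusted p under 0.05 was found for 7 (6 higher, 1 lower, or 14%), against 5.24% of all genes. MET, the receptor of hepatocyte growth factor that can pair with plexin-B receptors, stood at 102, 133 and 164 in Control and 352, 908 and 923 in Sox8OE (2.45 ± 0.47 SE, adjusted p = 4.4e-05). TRIM9, a ubiquitin ligase that binds the netrin receptor DCC, stood at 80.7, 65.1 and 76.6 against 152, 492 and 240 (1.99 ± 0.53 SE, adjusted p = 0.0080). RGMA, a lipid-anchored repellent that binds neogenin, stood at 1448, 1406 and 1108 against 674, 112 and 174 (-2.04 ± 0.61 SE, adjusted p = 0.023). In none of the 3 did the groups overlap, and in each of them Sox8OE replicate 1 was the nearest to Control.

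The other partner genes with an adjusted p under 0.05 all rose. They were the Src-family kinase FYN (0.88 ± 0.28 SE), the Rac inhibitor CHN1, which acts below EPHA4 (1.09 ± 0.35 SE), the Robo effector SRGAP1 (1.24 ± 0.37 SE) and the plexin co-receptor PTK7 (1.44 ± 0.47 SE). Of the 50 partner genes tested, 35 were positive and 15 negative. The groups did not overlap in 13 (26%, against 19.2% of all genes), with 8 higher and 5 lower in Sox8OE. All 5 lower ones were netrin, DCC and neogenin partners, where 7 genes were positive and 6 negative. DRAXIN, one of these 5, gave -1.06 ± 0.35 SE (adjusted p = 0.0502). edgeR and limma voom called none of the partner genes, with 17 and 13 of the 49 they tested at an unadjusted p under 0.05, against 16.4 and 19% of all genes. With the replicate block 5 were called, adding ARHGAP39 and ARHGEF11, against 8.15% of all genes. Without Sox8OE replicate 1, 10 were called, or 20% (9 higher, 1 lower), against 18.2% of all genes (9.31% higher, 8.93% lower). MET alone was called without Control replicate 1, Control replicate 3 or Sox8OE replicate 2.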

How the data were processed

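RNA-seq was done on 6 chick samples, 3 Sox8OE and 3 Control, grouped by their labels. Per the study's methods and the submitters' processing notes, the authors trimmed reads with Trim Galore, aligned them to galGal6 with STAR in the nf-core RNAseq pipeline, and counted genes with featureCounts. They deposited raw counts per gene. Annotation release, strand setting and treatment of reads shared between genes are not given in the sources used here. Of 24356 rows, 2945 had no counts and 10501 no gene name, and 16032 received an adjusted p.

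The main test, as in the study, was DESeq2 1.42.0 (R 4.3.3) on all genes, Wald test, with the package's own size factors, outlier and independent filters and Benjamini-Hochberg adjustment over all genes. Normalised counts are counts divided by the size factor. Fold changes are unshrunken. At the study's thresholds 532 genes were called higher and 154 lower here, more in each direction than the paper reports for this comparison. The reason for the difference was not tested. Alternatives were edgeR 4.0.16 (quasi-likelihood, 14862 genes kept), limma voom 3.58.1 with and without sample quality weights, TMM and total-count scaling, a count filter (at least 10 counts in at least 3 samples), no independent filtering, no outlier filter, a log2 fold threshold of 1, a replicate block, and each library left out. Tests were checked on simulated counts. The labels do not say that equal replicate numbers mark a shared litter, batch or day. The deviations of same-numbered samples from their group means correlated at 0.149, 0.123 and 0.105, those of other pairs at -0.140 to 0.026. On these small values the numbers were taken to pair the samples in the replicate block. The pairing thus comes from the same counts that the block p-values test. Deviations within a group cancel out, so positive values for same-numbered pairs push those of other pairs down. The main test, as in the study, used the group alone and ignored any pairing. No replicate pair agreed within sampling noise. The labels do not tie replicates to separate embryos or cultures, so p-values measure the spread between these samples.

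Genes were named where they passed a threshold, where they had one of the 3 smallest p-values or the highest or lowest fold change of their family, or where 1 group alone was at or under 3 counts. SEMA3F, SEMA4B, SEMA4G and EPHB3 and the other members outside that rule were named after their values were seen. Members and lists were chosen with earlier results of these data known. No transcript lengths were used, so levels are not compared between genes, and no coordinates are printed because the RefSeq table is of another build (GRCg7b). That table lists NTN1 as a synonym of NTN3 and PLXNB1 as one of PLXNB3, so those names follow the count table.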

Additional observations from a re-analysis of the deposited data

How the results depend on the processing

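Over all genes 686 were called, against 41 with edgeR, 33 with limma voom, 2974 with limma voom and sample quality weights, 1274 with the replicate block, 1056 (926 higher, 130 lower) with total-count scaling, and 248 to 3050 with a library left out. Guidance genes called were 4, against 0 with edgeR and with limma voom, 15 with quality weights, 7 with total-count scaling, 9 with the replicate block and 2 to 9 with a library left out. Those with an adjusted p under 0.05 were 5, against 0, 0, 31, 9 and 18 in the same order and 2 to 24. Partner genes called were 3, against 0, 0, 9 with quality weights, 5 with the block, 6 at a fold threshold of 1 and 1 to 10. No named gene changed direction past the test. Total-count scaling moved the median log2 fold change of all genes from 0.079 to 0.29 and that of guidance genes from 0.40 to 0.63. With 3 samples a group the spread rests on few libraries, and of the libraries left out in turn, Sox8OE replicate 1 gave the highest count of calls in all 4 of these counts. 4 guidance genes were too shallow to test, and UNC5A, with at most 24 counts in a library, had an SE of 1.85.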
